A study of Mus musculus with 4 samples.

Results

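Keratin genes were read from bulk RNA-seq of murine 4T1 mammary cancer cells. The genes were taken by name, as protein-coding genes whose symbol is Krt followed directly by a digit, which gave 54 of the 49585 genes listed. The members were chosen by gene symbol, and the measured FPKM of the 4 libraries, known from earlier work on these data, chose the family for description. 4T1-HM (highly metastatic) and 4T1-LM (low metastatic) cells each descend from 1 cell of the triple-negative breast cancer (TNBC) line 4T1, so each stands for 1 clone. Both were cultured for 48 h with 50 μM of the iron chelator deferasirox (DFX) dissolved in DMSO (HM_DFX and LM_DFX) or with DMSO alone (HM_Ctrl and LM_Ctrl). Each of the 4 conditions had 1 library, so the differences below come without replicates and without p-values.

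Keratins are the intermediate filament proteins of epithelial cells. Each filament is built from pairs of 1 type I and 1 type II chain, and cells therefore express members of both types. Simple keratins such as the pair Krt8 and Krt18 fill the luminal cells of glands, the pair Krt5 and Krt14 marks basal and myoepithelial cells, and Krt6a, Krt6b, Krt16 and Krt17 are stress keratins that skin switches on after wounding. Other keratins belong to the upper layers of stratified epithelia, to hair and to the sheath of the hair root.

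Of the 54 keratin genes, 8 were called expressed, against 12669 of all genes. FPKM counts sequenced fragments relative to gene length and library size, and expressed means that 1 library or more reached an FPKM of 1. The expressed members were the simple keratins Krt7, Krt8, Krt18 and Krt19, the basal keratin Krt14, the stress keratin Krt16, and Krt80 and Krt10 from the suprabasal and barrier group. None of the 15 hair keratins and none of the 9 keratins of the inner root sheath and companion layer was expressed. Of the 46 keratins below the filter, 30 were listed at 0 in all 4 libraries, and the highest value among the other 16 was an FPKM of 0.383 for Krt17. The keratins of cornified skin were among the lowest, with Krt1 at an FPKM of 0.0285 and Krt2 at 0.0266 in HM_DFX and both at 0 elsewhere. Of the expressed members, Krt10 passed the filter only through the DFX libraries. Krt13, of internal stratified epithelia, had 10 and 9 fragments in HM_Ctrl and HM_DFX, and 3 and 12 in LM_Ctrl and LM_DFX. The hair keratins that were not at 0 in all libraries were Krt36 and Krt32, with at most 4 and 3 fragments.

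The labelled origin of the cells was checked with marker genes. E-cadherin, Cdh1, lay between an FPKM of 43.7 and 96.9, and Epcam between 13.5 and 29.3. Both belong to a list of 12 luminal markers, of which 8 were expressed. These include Krt8, Krt18 and Krt19, which are themselves among the keratins described here. Of the luminal markers that were not expressed, Elf5 and Pgr were at 0 in every library. Esr1 and Cldn7 did not exceed 0.529 and 0.620. The summed FPKM was between 0.0102 and 0.203 for the 4 endothelial markers and between 0.0142 and 0.173 for the 3 adipocyte markers. Of the 6 fibroblast markers only Pdgfra was expressed, and Lum was at 0 in every library. The 7 immune markers summed to between 12.3 and 83.1, almost all of it Cd68, which encodes a lysosomal protein. The defining immune markers Cd3e and Adgre1 were at 0 in every library, and Ptprc did not exceed 0.0139. Recovered totals were between 14363065 fragments in HM_DFX and 21883855 in LM_DFX. In bulk RNA, fewer cells that express a gene and less RNA per cell cannot be told apart.

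Simple keratins carried most of the keratin RNA. The summed FPKM of all 54 keratin genes was 1676 in HM_Ctrl against 615 in HM_DFX, and 2213 in LM_Ctrl against 1113 in LM_DFX. By FPKM, Krt18 and Krt8 together were the leading members. They made up 46.1% and 35.4% of that sum in HM_Ctrl and 42.1% and 43.5% in LM_Ctrl. These shares depend on gene length, by which FPKM divides. In recovered fragments, Krt7 had 20929 in HM_Ctrl, against 18113 for Krt18 and 17935 for Krt8. In LM_Ctrl these numbers were 19453, 20540 and 27355. Krt18, a type I chain, was 44th of the 12669 expressed genes by FPKM in HM_Ctrl and 33rd in LM_Ctrl, and was 163rd in HM_DFX and 80th in LM_DFX. Keratins made up 0.515% of all FPKM in HM_Ctrl and 0.656% in LM_Ctrl, and 0.187% and 0.326% under DFX.

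**Figure D1:**
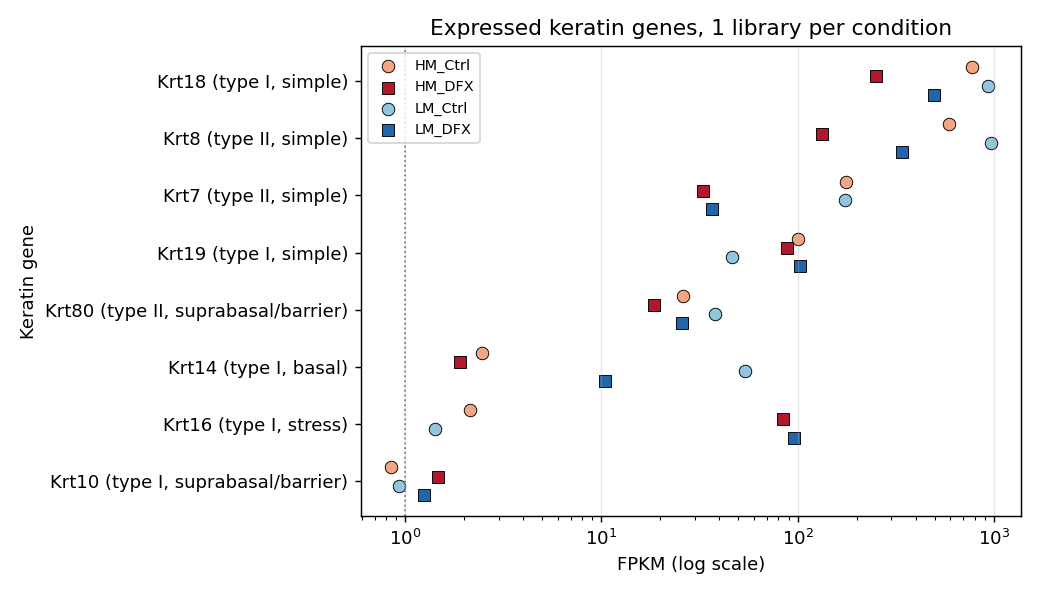
FPKM of the 8 expressed keratin genes on a log axis, with 1 point for each library, circles for DMSO and squares for DFX. The dotted line marks an FPKM of 1. Krt16 moves from between 1.42 and 2.14 in the DMSO libraries to 84.7 and 95.4 under DFX, while Krt18, Krt8 and Krt7 are lower in both DFX libraries than in both DMSO libraries.

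The first question was how DFX changed the keratins within each clone. Genes whose FPKM + 1 differed 2-fold or more were called, and "rose" and "fell" are used for such calls. In HM_DFX against HM_Ctrl, 3 of the 8 expressed keratins fell (Krt7, Krt8 and Krt18) and 1 rose (Krt16). Over all expressed genes, 19.3% were called by the same rule, 12.4% lower and 6.93% higher. In LM_DFX against LM_Ctrl, 3 fell (Krt7, Krt8 and Krt14) and 2 rose (Krt16 and Krt19), where 15.8% of all expressed genes were called, 8.72% lower and 7.09% higher. The median log2 change of the 8 keratins was −0.37 in HM and −0.72 in LM, beside −0.10 and −0.04 for all expressed genes. Scaling each library by its median ratio moved the HM median of all genes to 0.00 and changed its split from 878 higher and 1568 lower to 1128 higher and 1277 lower, and left the keratin calls as they were.

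Krt7, Krt8 and Krt18 lie in the type II keratin cluster on chromosome 15, where Krt18 is the only type I gene. Krt8 (ENSMUSG00000049382, chromosome 15 from 101996711 to 102004342 of mm10) and Krt18 (ENSMUSG00000023043, from 102028216 to 102032026) are neighbours on opposite strands, 23873 bases apart. Krt7 (ENSMUSG00000023039) lies from 101411043 to 101430313. The RefSeq promoter table (GRCm38.p6, the build of mm10) matched 5 of the 8 expressed keratins. Krt16, Krt19 and Krt80 had no entry. The promoters of the simple and basal members that fell under DFX are given here, around their RefSeq start sites. Each runs from 250 bases before to 50 after that start, 5′ to 3′ on the strand of the gene. For Krt7 and Krt14 the whole window lies inside the span listed for the gene in the file. Their windows therefore do not reach the starts of those spans. Capitals mark every match, on both strands, to the motifs searched.

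Krt7, plus strand, chr15:101412153-101412452, and Krt8, minus strand, chr15:102004293-102004592, were
Krt7: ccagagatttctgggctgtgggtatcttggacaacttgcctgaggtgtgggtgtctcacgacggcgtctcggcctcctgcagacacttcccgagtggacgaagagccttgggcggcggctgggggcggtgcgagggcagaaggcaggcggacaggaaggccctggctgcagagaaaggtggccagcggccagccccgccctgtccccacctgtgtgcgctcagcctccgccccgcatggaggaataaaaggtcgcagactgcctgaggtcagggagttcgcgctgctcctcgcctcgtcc
Krt8: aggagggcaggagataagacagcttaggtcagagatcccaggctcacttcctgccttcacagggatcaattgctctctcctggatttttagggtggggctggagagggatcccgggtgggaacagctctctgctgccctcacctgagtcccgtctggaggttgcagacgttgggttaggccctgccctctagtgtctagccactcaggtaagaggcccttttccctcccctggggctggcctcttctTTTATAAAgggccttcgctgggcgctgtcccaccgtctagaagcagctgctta
Krt18, plus strand, chr15:102027966-102028265, and Krt14, minus strand, chr11:100205981-100206280, were
Krt18: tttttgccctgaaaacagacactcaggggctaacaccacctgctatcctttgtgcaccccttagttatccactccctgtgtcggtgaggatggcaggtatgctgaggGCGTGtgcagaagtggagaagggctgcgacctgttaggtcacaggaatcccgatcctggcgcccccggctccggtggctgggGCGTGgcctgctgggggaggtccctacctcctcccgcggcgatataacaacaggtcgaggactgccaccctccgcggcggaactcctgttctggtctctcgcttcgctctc
Krt14: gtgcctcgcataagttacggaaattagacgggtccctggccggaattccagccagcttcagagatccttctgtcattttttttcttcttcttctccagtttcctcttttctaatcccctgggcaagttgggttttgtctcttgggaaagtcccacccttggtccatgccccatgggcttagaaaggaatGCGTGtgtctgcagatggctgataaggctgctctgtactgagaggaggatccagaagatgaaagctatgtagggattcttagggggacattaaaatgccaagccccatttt

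The AP-1 motif TGANTCA occurs in 7.81% of the 32851 promoters in the table. The core of the antioxidant response element, TGACNNNGC, occurs in 12.4%. For the hypoxia response element, the core ACGTG occurs in 19.6% and the variant GCGTG in 32.4%. The TATA box TATAAA occurs in 13.6%. Krt18 had 2 matches to GCGTG and Krt14 had 1. Krt8 had the TATA box letters on both strands in 1 overlapping stretch at its annotated start. Krt7 had no match. AP-1, antioxidant element and ACGTG matches were absent from all 4 windows. G and C made up 66.3% of the Krt7 window, 58.0% of Krt8, 61.3% of Krt18 and 48.3% of Krt14. These matches describe letters and not binding.

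Among simple keratins, Krt8 had 593 FPKM in HM_Ctrl against 134 in HM_DFX, and 963 in LM_Ctrl against 339 in LM_DFX. Both DFX libraries were below both DMSO libraries, and the HM library was below the LM library in each treatment. The level in HM_DFX was 4.42-fold below HM_Ctrl and that in LM_DFX 2.84-fold below LM_Ctrl. On the log2 scale these ratios of FPKM were −2.15, with a 95% counting interval of −2.20 to −2.09, and −1.51, with an interval of −1.54 to −1.48. The intervals here and below come from recovered fragments by the exact binomial method and reflect counting error alone. Of the 31-base words of the Krt8 transcripts, 32.2% also occur in the pseudogene Krt8-ps, so counting could move fragments between them, although the FPKM of Krt8-ps did not exceed 2.76.

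Krt18, the type I partner of Krt8, had 773 FPKM in HM_Ctrl against 251 in HM_DFX, and 933 in LM_Ctrl against 499 in LM_DFX. It fell 3.07-fold in HM. In LM the level under DFX was 1.87-fold below that of DMSO, a log2 change of −0.90 that did not reach the 2-fold call. The ratio of Krt18 to Krt8 FPKM went from 1.30 in HM_Ctrl to 1.87 in HM_DFX and from 0.968 in LM_Ctrl to 1.47 in LM_DFX, so Krt8 was reduced more than Krt18 in both clones.

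Krt7, a type II simple keratin of ducts and glands, had 177 FPKM in HM_Ctrl against 32.9 in HM_DFX, and 175 in LM_Ctrl against 36.6 in LM_DFX. The clones lay close together in each treatment, and the log2 ratio of HM_Ctrl to LM_Ctrl was 0.02 with a counting interval of −0.01 to 0.04. Krt7 fell 5.39-fold in HM and 4.79-fold in LM. Its log2 change was the 79th lowest of 12669 in HM and the 82nd lowest in LM.

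Krt19 (ENSMUSG00000020911, chromosome 11 from 100140810 to 100148665), the smallest type I keratin, did not follow the other simple keratins. Its FPKM was 101 in HM_Ctrl against 87.9 in HM_DFX, and 46.4 in LM_Ctrl against 103 in LM_DFX. LM_Ctrl was the low library, and the other 3 lay within a narrow range. In LM the level under DFX was 2.22-fold that of DMSO, with a log2 ratio of 1.15 and a counting interval of 1.06 to 1.24. In HM the log2 ratio was −0.20 with an interval of −0.27 to −0.12. With 1 library per condition, whether this response differs between the clones was not tested. Simple keratins Krt20 and Krt23 were below the filter, with at most 5 and 4 fragments in a library.

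As a class, the 6 simple keratins had a summed FPKM of 1644 in HM_Ctrl against 506 in HM_DFX, and 2118 in LM_Ctrl against 979 in LM_DFX. The sum was 3.25-fold lower under DFX in HM and 2.16-fold lower in LM.

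**Figure D2:**
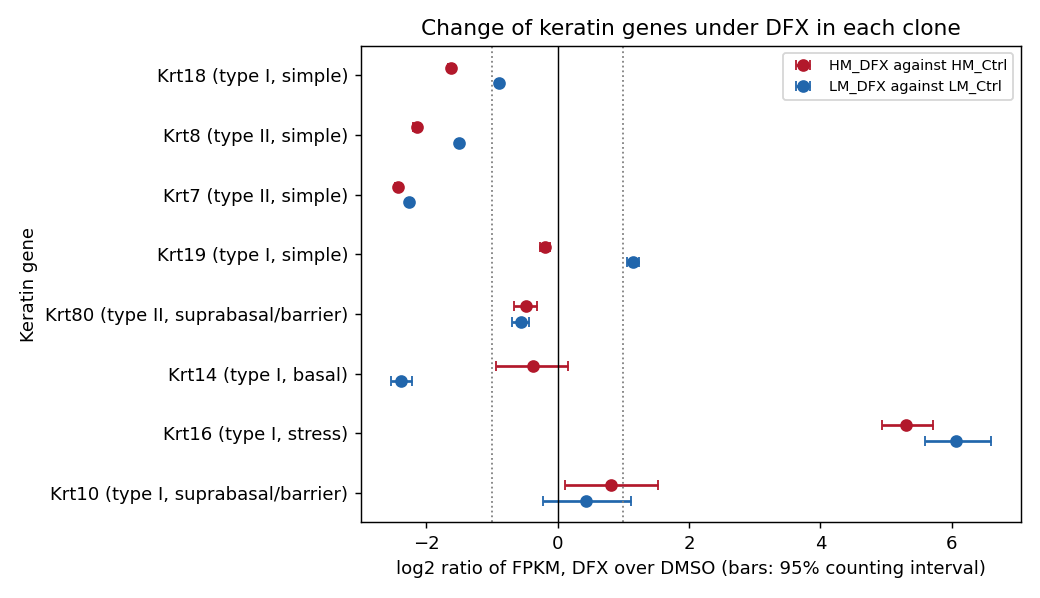
log2 ratio of FPKM between DFX and DMSO for the 8 expressed keratin genes, red for HM and blue for LM, with bars for the 95% counting interval and dotted lines at 2-fold. Krt16 lies at 5.31 and 6.07, Krt7 at −2.43 and −2.26, and Krt19 and Krt14 lie apart between the clones.

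The stress keratin Krt16 (ENSMUSG00000053797, chromosome 11 from 100246091 to 100248902) had the largest change under DFX among the 8 expressed keratins in both clones. Krt16 is a type I chain that is scarce in resting skin and abundant at wound edges. Its FPKM was 2.14 in HM_Ctrl against 84.7 in HM_DFX, and 1.42 in LM_Ctrl against 95.4 in LM_DFX, from 56, 1904, 35 and 3266 fragments. Both DFX libraries were far above both DMSO libraries, and the clones lay close together within each treatment. The ratio of FPKM was 39.6-fold in HM and 67.1-fold in LM. The log2 change on the FPKM + 1 scale, 4.77 and 5.31, was the second highest of all 12669 expressed genes in HM and the fourth highest in LM. By FPKM, Krt16 moved from 10179th to 576th in HM and from 10861st to 507th in LM. Its share of keratin FPKM went from 0.127% to 13.8% in HM and from 0.0642% to 8.57% in LM.

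The other stress keratins stayed low. Krt17, which also marks injured and basal epithelium and lies 7314 bases from Krt16, had 0 fragments in HM_Ctrl against 6 in HM_DFX, and 2 in LM_Ctrl against 13 in LM_DFX. Krt6a and Krt6b, the type II chains that pair with Krt16 in skin, were at 0 in all 4 libraries. A count of 0 allows up to 3 fragments, which is an FPKM of 0.0864 for Krt6a and 0.0935 for Krt6b in HM_DFX, the shallowest library. These limits take gene lengths from the GENCODE M21 annotation, whose ends differ from those of the file for both genes. Of the 31-base words of Krt6a, 45.9% also occur in Krt6b, and reads on such stretches may not have been counted. For Krt16, 51.9% of these words occur in another gene. Of all Krt16 words, 32.2% occur in Gm11597 (highest FPKM 0.0948) and 19.7% in Krt14.

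The second question was where the clones differed. Between the clones under DMSO, HM_Ctrl against LM_Ctrl, 1 of the 8 expressed keratins was lower (Krt14) and 1 was higher (Krt19). Beside this, 6.80% of all expressed genes were called, 3.15% lower and 3.65% higher. Under DFX, HM_DFX against LM_DFX, Krt14 and Krt8 were lower and no keratin was higher, beside 5.05% lower and 3.31% higher of all expressed genes, 8.36% in all. The comparison of the clones under DMSO shares HM_Ctrl or LM_Ctrl with the comparison of DFX to DMSO in each clone. A value that was by chance high or low in a DMSO library therefore enters both.

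Krt14 (ENSMUSG00000045545, chromosome 11 from 100203162 to 100207548), the type I keratin of basal and myoepithelial cells, set the clones apart. Its FPKM was 2.48 in HM_Ctrl against 1.90 in HM_DFX, and 54.3 in LM_Ctrl against 10.4 in LM_DFX, from 73, 48, 1502 and 402 fragments. Both LM libraries were above both HM libraries. LM_Ctrl was 21.9-fold above HM_Ctrl, and the log2 difference on the FPKM + 1 scale, −3.99 for HM_Ctrl against LM_Ctrl, was the sixth lowest of 12669 genes. Krt14 fell 5.20-fold in LM under DFX and remained 5.50-fold higher in LM_DFX than in HM_DFX. In HM the log2 ratio of DFX to DMSO was −0.38 with a counting interval of −0.94 to 0.16, a difference not detectable at this depth. Of the Krt14 31-base words, 17.6% also occur in Krt16, which was high where Krt14 was low under DFX, and the part of shared reads in these values was not tested.

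The type II partner of Krt14, Krt5, was at 0 in all 4 libraries, which allows an FPKM of up to 0.0951 in HM_DFX by the length of release M21. The basal keratin Krt15 had at most 2 fragments in a library. Of the 9 myoepithelial markers, Krt14 and Mylk were expressed. Mylk passed the filter only through LM_Ctrl, so its lower value in HM_Ctrl is not counted beside that of Krt14. Its log2 difference between HM_Ctrl and LM_Ctrl was −1.30 on the FPKM + 1 scale. Trp63, the basal transcription factor p63, did not exceed an FPKM of 0.0152, and Acta2, the smooth muscle actin of myoepithelial cells, did not exceed 0.143. Mylk, a myosin light chain kinase, had 0.112 FPKM in HM_Ctrl against 0.0411 in HM_DFX, and 1.73 in LM_Ctrl against 0.612 in LM_DFX.

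Neither of the remaining expressed keratins passed 2-fold in a comparison. Krt80 (ENSMUSG00000037185, chromosome 15 from 101349571 to 101370125), a type II keratin of differentiating epithelia, had 26.2 FPKM in HM_Ctrl against 18.6 in HM_DFX, and 38.0 in LM_Ctrl against 25.8 in LM_DFX. The DFX library was lower than its DMSO control in both clones, by log2 changes of −0.47 and −0.54 that missed the 2-fold call. Krt10 (ENSMUSG00000019761, chromosome 11 from 99385254 to 99389364), the type I keratin of suprabasal epidermis, had 0.847 FPKM in HM_Ctrl against 1.48 in HM_DFX, and 0.932 in LM_Ctrl against 1.25 in LM_DFX. The counting interval of its log2 ratio under DFX was 0.11 to 1.52 in HM and −0.23 to 1.11 in LM.

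The balance of the chain types was then compared within each library, a ratio that no scaling of libraries changes. This ratio was chosen after the values were seen. It depends on the gene lengths behind the FPKM, solved as at least 7055 bases for Krt7 and 1805 for Krt8. Of the 54 keratin genes, 28 are type I, of which 5 were expressed, and 26 are type II, of which 3 were expressed. The summed FPKM of type I was 879.7 in HM_Ctrl against 429 in HM_DFX, and 1036 in LM_Ctrl against 711 in LM_DFX. For type II the sums were 797, 186, 1177 and 402. The ratio of type I to type II was 1.10 in HM_Ctrl and 0.880 in LM_Ctrl, and 2.31 in HM_DFX and 1.77 in LM_DFX. Without Krt16 the DFX ratios were 1.85 and 1.53, still above those of the DMSO libraries. Krt16 was 19.8% of type I FPKM in HM_DFX and 13.4% in LM_DFX.

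**Figure D3:**
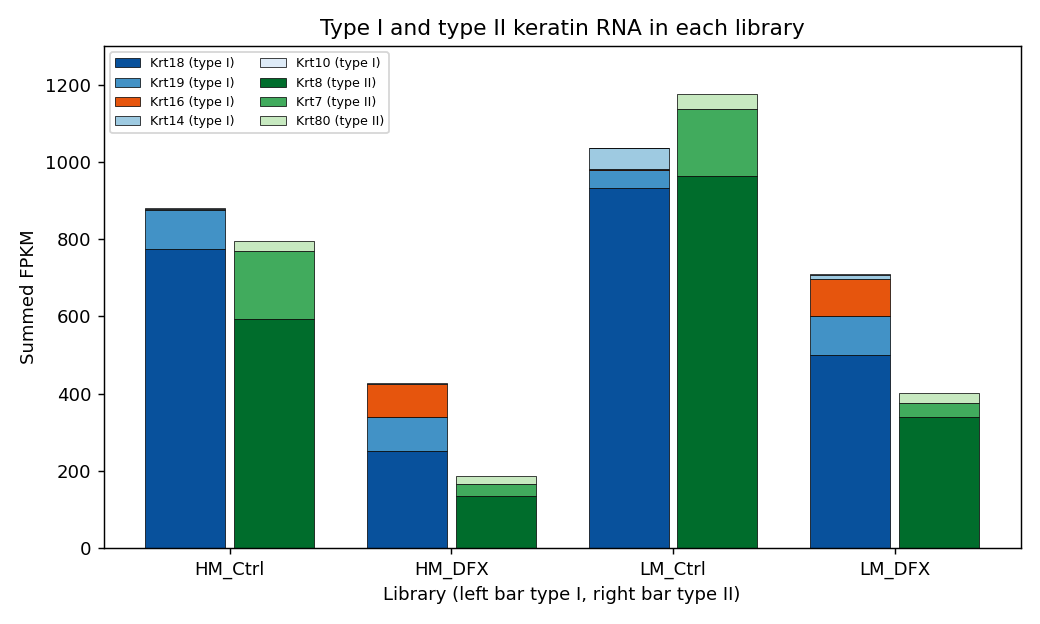
Summed FPKM of type I keratins (left bar, blue and orange) and type II keratins (right bar, green) in each library, stacked by gene. Type I and type II are near equal in the DMSO libraries (ratios 1.10 and 0.880), and type I exceeds type II in the DFX libraries (2.31 and 1.77), with Krt16 in orange.

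Genes that keratin filaments depend on were read from lists. Hemidesmosomes anchor keratins to the basement membrane. Of 5 expressed hemidesmosome genes, 4 fell in HM under DFX and 1 in LM, with median log2 changes of −1.24 and −0.66. Over all expressed genes, 12.4% were lower in HM and 8.72% in LM, with medians of −0.10 and −0.04. For the hemidesmosome genes, median-ratio scaling left 3 falls in HM. Integrin β4, Itgb4, had 33.7 FPKM in HM_Ctrl against 8.61 in HM_DFX, and 33.0 in LM_Ctrl against 20.6 in LM_DFX. Its partner Itga6 had log2 changes of −1.34 in HM and −0.65 in LM, and the tetraspanin Cd151 had −1.08 and −0.66. Plec, encoding the linker plectin, was the only hemidesmosome gene past 2-fold in LM (log2 change −1.42, named after its values were seen).

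Desmosomes tie keratins of neighbouring cells together. Of the 9 expressed desmosome genes, the cadherin gene Dsc2 was listed at 0 in both HM libraries and passed the filter only through LM, and none of the other 8 passed 2-fold in HM. In LM 1 of the 9 rose, Pkp2 (log2 change 1.10, named with Dsc2 after their values were seen). Over all expressed genes, 19.3% were called in HM, and 7.09% were higher and 8.72% lower in LM. The LM median was −0.02, and 0.03 under median-ratio scaling. The most abundant desmosome genes were Perp, with log2 changes of −0.97 in HM and −0.04 in LM, Jup, encoding plakoglobin (−0.32 and −0.09), and Pkp3, encoding plakophilin 3 (−0.57 and −0.16).

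Of 5 expressed genes of other intermediate filaments, 3 fell in HM and 3 in LM, with medians of −1.14 and −1.15, beside 12.4% and 8.72% of all expressed genes lower and all-gene medians of −0.10 and −0.04. Vim, encoding vimentin, the filament protein of mesenchymal cells, had 937 FPKM in HM_Ctrl against 482 in HM_DFX, and 1251 in LM_Ctrl against 702 in LM_DFX, log2 changes of −0.96 and −0.83 that missed the call. The lamin genes Lmna (−1.15 in both clones) and Lmnb1 (−1.14 and −1.56) fell.

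The cornified envelope is the protein shell of skin cells, on which suprabasal keratins converge. Only 5 of its 23 listed genes were expressed. Sprr1a, Cdsn and Sbsn passed the filter only through DFX libraries, and Evpl only through the LM libraries (Sbsn and Evpl named after their values were seen). No count of rises is therefore given for this list. Sprr1a, a small proline-rich envelope protein, was listed at 0 in both DMSO libraries and had an FPKM of 7.43 in HM_DFX and 1.53 in LM_DFX. Ppl, encoding periplakin, which binds keratin, had log2 changes of −1.56 in HM and −0.58 in LM, and Cdsn, encoding corneodesmosin, had −0.15 and 1.49.

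Of 10 expressed transcription factors known to act on epithelial and keratin genes, 3 rose in HM and 5 in LM, and none fell, where 6.93% and 7.09% of all expressed genes were higher. Grhl1, 1 of the 3 rises in HM, passed the filter only through HM_DFX, at 3.38 FPKM against 0.665 in HM_Ctrl. The medians were 0.91 and 0.76, and median-ratio scaling gave 6 rises in HM. Klf5, a Krüppel-like factor of proliferating epithelium, had 67.0 FPKM in HM_Ctrl against 135 in HM_DFX, and 35.8 in LM_Ctrl against 86.7 in LM_DFX. Sox9 had log2 changes of 0.90 in HM and 1.14 in LM, and Tfap2a of 0.93 and 1.35. The HM changes of Sox9 and Tfap2a missed the call. Klf4, named with Grhl1 after their values were seen, had the largest changes of the list, 1.54 in HM and 2.58 in LM.

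Of 8 expressed luminal markers, a list that includes Krt8, Krt18 and Krt19, 5 fell in HM, beside 12.4% of all expressed genes, and Cdh1 had a log2 change of −1.07. In LM 1 fell and 1 rose, both keratins, beside 8.72% and 7.09% of all expressed genes, and Cdh1 had −0.69. Under median-ratio scaling the falls in HM were 2, Krt8 and Krt18. Cd68 rose in both clones, from an FPKM of 12.9 to 37.4 in HM and from 12.3 to 83.1 in LM, while Cd3e and Adgre1 stayed at 0. The part of these markers in the keratin values was not tested.

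**Figure D4:**
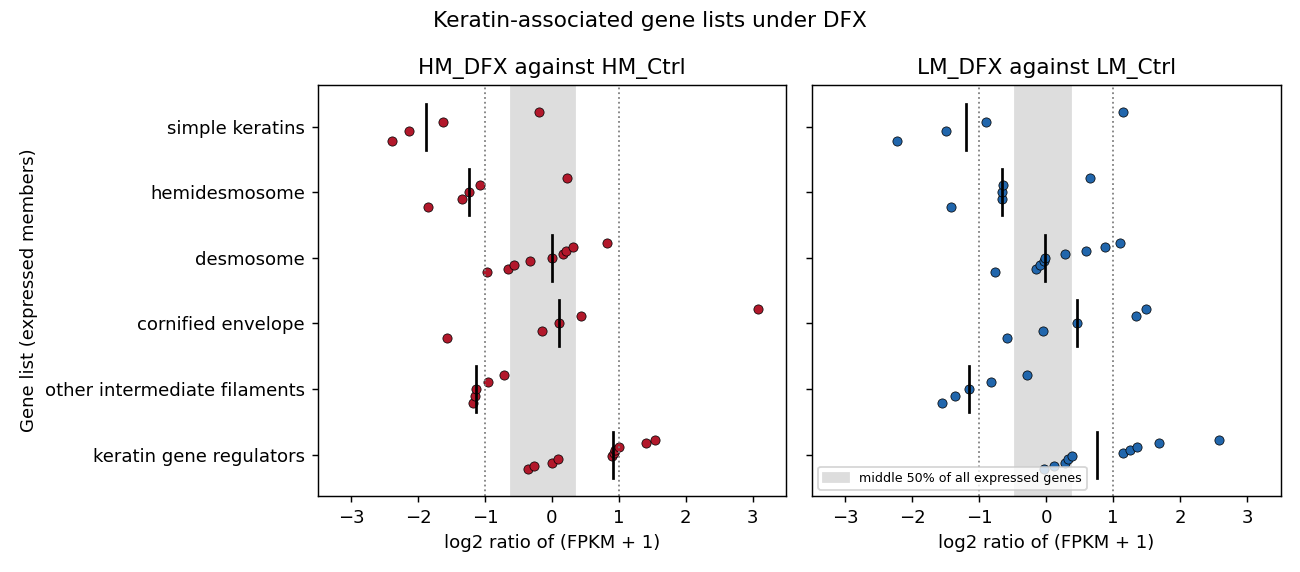
log2 ratio of FPKM + 1 between DFX and DMSO for every expressed member of 6 gene lists, with HM on the left and LM on the right. Points are genes, black bars list medians, grey bands the middle 50% of all expressed genes and dotted lines 2-fold. Hemidesmosome genes have a median of −1.24 in HM and −0.66 in LM, and desmosome genes of −0.02 in LM. The HM desmosome bar, at 0.00, is Dsc2, which was listed at 0 in both HM libraries. In the cornified envelope list, Sprr1a, Cdsn and Sbsn passed the filter only through DFX libraries.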

How the data were processed

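The authors isolated poly(A) RNA, made directional libraries, trimmed the paired-end reads with Trimmomatic after FastQC and aligned them to mm10 with HISAT2. The submitters' processing notes also list featureCounts, with no strand setting or version. The deposited values are FPKM for 49585 genes, 1 library for each of the 4 conditions, and no libraries were combined here. The study's edgeR test was not repeated, because 1 library per condition gives no spread.

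From the FPKM and exon lengths of GENCODE M21, fragments were recovered. Of the 18235 genes above 0 whose coordinates equal that release, 96.9% were whole in all 4 libraries within 0.05 of a fragment. The totals were 16745608 fragments in HM_Ctrl against 14363065 in HM_DFX, and 15731521 in LM_Ctrl against 21883855 in LM_DFX. For Krt7, Krt8, Krt18, Krt80, Krt1 and Krt79 the shortest length that gave whole fragments in every library (within 0.01) was solved. Multiples of a length do the same, so these fragments are the fewest possible. Counting intervals are exact binomial (95%, scipy 1.17.1) on fragments.

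Calls used log2 of the ratio of FPKM + 1, a scale that understates changes of low genes, a filter keeping genes with an FPKM of 1 or more in any library, and a 2-fold threshold. The calling was tested on simulated data that held counting error alone, so that test could not cover variation between cultures. Motifs and shared words of 31 bases were counted in RefSeq promoters and GENCODE M21 transcripts. Every expressed keratin is named, and of each other list the 3 expressed genes with the highest mean FPKM. The members and lists were chosen with earlier results of these data known. Alternatives were a pseudocount of 0.1, other filters, median-ratio and upper-quartile scaling, 1.5-fold and 4-fold thresholds and fragments over library totals.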

Additional observations from a re-analysis of the deposited data

Results flagged for a closer look

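In the deposited values Krt19 moved in opposite directions under DFX in the clones, with counting intervals on opposite sides of 0. Its log2 change on the FPKM + 1 scale was −0.19 in HM and 1.14 in LM, so the HM value minus the LM value was −1.33. Under median-ratio scaling the HM change was −0.06 and the LM change 1.19. The small HM change thus depends on the scaling, and its counting interval was not computed on the scaled values. The difference was not tested, since each response rests on 1 library per condition, and LM_Ctrl was the low library of the 4 at an FPKM of 46.4. The changes of the other 7 expressed keratins had the same sign in both clones.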

How the results depend on the processing

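With 1 library per condition, no library could be left out, and no paired analysis was possible because the results come from no test. The 8 expressed keratins in 4 comparisons gave 96 values under a pseudocount of 0.1, median-ratio scaling and upper-quartile scaling, of which 0 reversed a called direction and 0 changed a call. No filter and a mean FPKM of at least 1 left the keratin calls as they were. At a 4-fold threshold LM_DFX had 1 keratin higher than LM_Ctrl, HM_Ctrl had 0 higher than LM_Ctrl, and HM_DFX had 0 lower than LM_DFX, and the keratins lower under DFX went from 3 to 2 in each clone. At 1.5-fold HM_Ctrl had 2 lower than LM_Ctrl, LM_DFX had 4 lower than LM_Ctrl, and HM_DFX had 3 lower than LM_DFX. Each other keratin count was that of the 2-fold threshold. The log2 ratio of the simple keratin sum was −1.70 in HM_DFX against HM_Ctrl, −1.56 under median-ratio scaling and −1.86 as fragments over the library total, which gives long genes such as Krt7 more weight. In LM_DFX against LM_Ctrl it was −1.11, and −1.06 and −1.31 under the same settings. In HM_Ctrl against LM_Ctrl it was −0.37, with −0.33 under upper-quartile scaling and −0.28 as fragments. In HM_DFX against LM_DFX it was −0.95, with −0.87, −0.91 and −0.83 under median-ratio scaling, upper-quartile scaling and fragments. The basal and stress sums, which rest almost wholly on Krt14 and Krt16, stayed within their counting intervals. Variation between cultures cannot be measured here, and in low keratins such as Krt10 and Krt17 the number of fragments limits what can be seen.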

Other observations

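The processed pseudogene Krt8-ps, which the choice of protein-coding genes leaves out, had 1.01 FPKM in HM_Ctrl against 0.516 in HM_DFX, and 2.76 in LM_Ctrl against 0.822 in LM_DFX. Among keratins below the filter, the type I keratin Krt42 had 1 fragment in HM_Ctrl against 7 in HM_DFX, and 0 in LM_Ctrl against 6 in LM_DFX. The type II keratin Krt88 had 0 and 1 fragments in HM_Ctrl and HM_DFX, and 0 and 6 in LM_Ctrl and LM_DFX.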
